A study of Homo sapiens with 2 samples.

Results

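The metalloproteases and tissue inhibitors of metalloproteases (TIMPs) described here are 9 genes, taken by symbol from the 46732 genes of the deposited table. They are the membrane-type matrix metalloproteases MMP14, MMP15, MMP16 and MMP24, the membrane proteases ADAM10 and ADAM17, and the inhibitors TIMP1, TIMP2 and TIMP3. RNA was measured in 2 libraries of T47D, an established luminal, estrogen receptor-positive human breast cancer line, grown as secondary mammospheres, that is, floating spheres formed without attachment. One library came from control cells and 1 from cells labelled CIC knockdown, both after 7 days as primary and 7 days as secondary spheres. Neither the means of knockdown nor any pooling of clones or cultures is stated in the labels. Although the series is described as run in duplicate, each group has 1 library here. The intervals below therefore cover counting error only, not the spread between cultures, and no difference was tested.

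Matrix metalloproteases and ADAMs are zinc-dependent proteases that are made as inactive precursors. The membrane-type enzymes stay anchored to the cell surface, where they cut matrix proteins and activate other matrix metalloproteases, whereas ADAM10 and ADAM17 mainly shed the outer parts of membrane proteins such as Notch receptors, cadherins and ligands of the EGF receptor. TIMPs are small secreted proteins that block the catalytic site. TIMP2 and TIMP3 inhibit membrane-type enzymes well, TIMP1 inhibits most of them poorly, TIMP3 is the main TIMP inhibitor of ADAM17, and both TIMP1 and TIMP3 inhibit ADAM10. CIC is a DNA-binding repressor that keeps the ETS factors ETV4 and ETV5 low, and in lung cancer cells its loss has been linked to higher MMP24 through ETV4.

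The control library held 47099221 estimated counts and the library labelled CIC knockdown 68420805, 1.45 times as many. CIC itself stood at 607 and 872 counts, giving a ratio of normalised counts of 0.98 (95% counting interval 0.882 to 1.09), so its mRNA was not lower where the label says knockdown, and each library is called by its label. ETV4 (81 and 557 counts) and ETV5 (174 and 1268 counts) stood higher under the CIC knockdown label. All 8 markers of luminal breast epithelium were present in both libraries, at a summed 8019 TPM (the authors' length-corrected level) in control and 8110 TPM in the other. Of 10 fibroblast markers, COL1A2, PDGFRA, PDGFRB, THY1 and FAP were at 0 in both libraries. The fibroblast list summed to 14.2 and 26.1 TPM, most of it COL3A1 (9.38 and 23.1 TPM) and LUM (4.44 and 2.44 TPM). The endothelial and leukocyte lists summed to at most 0.155 and 0.207 TPM in a library, and the basal list, with KRT5 and KRT14 at 0, to 0.95 and 0.764 TPM. In bulk RNA, fewer cells of a type and less RNA per cell cannot be told apart.

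Among the 9 genes, MMP24 and MMP14 had the ratios farthest above and below 1, both on few counts, and MMP24 is the member tied to CIC by earlier work. Their upstream sequences are shown because CIC and the ETS factors act at promoters. Each runs 5′ to 3′ on the plus strand of GRCh38.p14, from RefSeq, and stops before the first exon of either annotation used. Capitals mark GGAA, the core of ETS factor sites, or its reverse complement TTCC.

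MMP24, chr20:35226440-35226653: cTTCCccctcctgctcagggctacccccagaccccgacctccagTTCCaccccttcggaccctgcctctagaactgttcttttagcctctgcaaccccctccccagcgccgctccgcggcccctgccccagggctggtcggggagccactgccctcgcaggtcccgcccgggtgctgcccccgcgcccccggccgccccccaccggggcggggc

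MMP14, chr14:22836335-22836556: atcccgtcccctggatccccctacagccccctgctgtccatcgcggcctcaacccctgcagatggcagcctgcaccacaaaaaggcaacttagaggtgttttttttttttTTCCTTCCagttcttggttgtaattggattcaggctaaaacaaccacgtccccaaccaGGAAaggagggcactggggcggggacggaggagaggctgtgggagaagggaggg

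The MMP24 window is 214 bases long, has a GC content of 75.2% and holds 2 such cores. The MMP14 window is 222 bases long, has a GC content of 56.3% and holds 3. Upstream windows of 250 bases were found for 7 of the 9 genes, all but MMP16 and TIMP2. GGAA, read on both strands, occurred in all 7 and in 92.7% of all 35116 windows of that length, so its presence does not set these genes apart. The longer ETS-like run CCGGAA, which contains GGAA, occurred in ADAM17 alone among the 7, and in 14.5% of all windows. Neither form of the CIC octamer searched, TGAATGAA or TGAATGGA, was found in any of the 7, against 1.40% and 0.832% of all windows. TGAGTCA, a site of the AP-1 factors, was likewise found in none of them and in 4.20% of all. These are letter matches in a short window and say nothing about binding.

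Transcripts of the 9 genes spanned a wide range of levels, and their order was almost the same in both libraries. TIMP1 was the most abundant at 51.9 TPM in control (95% counting interval 49.6 to 54.3) and 49.5 TPM in the library labelled CIC knockdown (47.6 to 51.4). ADAM17 followed at 21.0 and 20.7 TPM, and ADAM10 at 15.7 and 19.3 TPM. TIMP3 came next after ADAM10 in control at 6.34 TPM (6.04 to 6.66) but stood at 3.82 TPM (3.62 to 4.03) in the other library, below MMP16 and MMP15. At the low end of the order MMP14 and MMP24 lay far under 1 TPM, and in control their intervals, 0.0796 to 0.192 and 0.0236 to 0.0907 TPM, overlapped. No other neighbours in the order had overlapping counting intervals in either library.

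**Figure D1:**
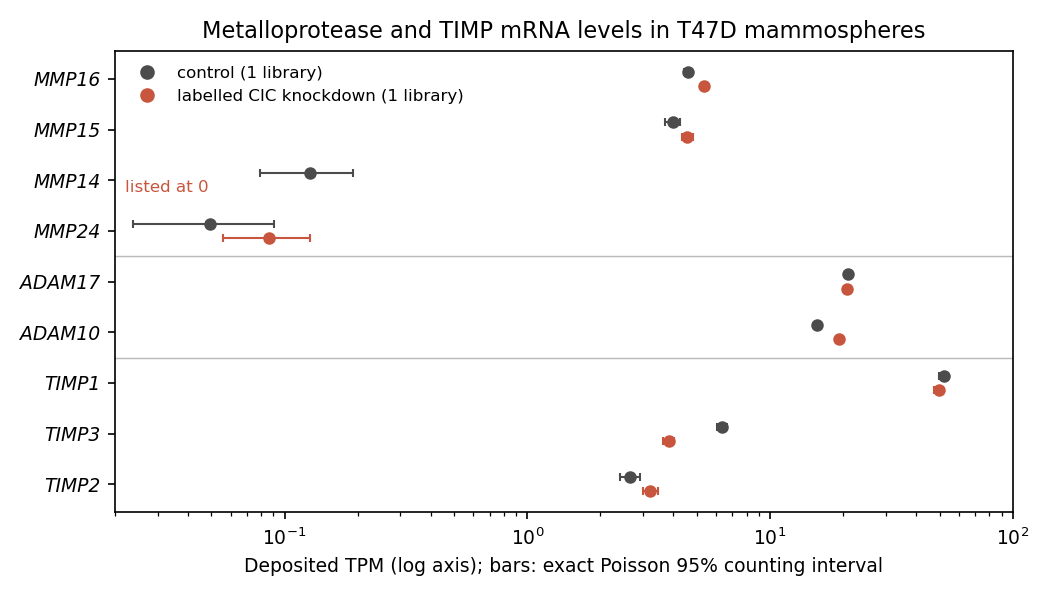
Deposited TPM (log axis) of the 9 genes in the control library and the library labelled CIC knockdown, 1 library each, with exact Poisson 95% counting intervals as bars. TIMP1 lies above all others in both libraries, TIMP3 is lower in the library labelled CIC knockdown (3.82 against 6.34 TPM), and MMP14 is listed at 0 there.

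Of the 9 genes, 7 had at least 100 counts in 1 library. By their counting intervals, 3 of these 7 lay above control in the library labelled CIC knockdown (MMP15, MMP16 and TIMP2), 1 was lower (TIMP3) and 3 overlapped a ratio of 1 (ADAM10, ADAM17 and TIMP1). Over all 13722 genes with that many counts, 33.8% were higher and 27.3% lower by the same rule, since intervals of counting error alone are narrow at this depth. One of the 7, TIMP3, was also at least 1.5-fold apart, against 7.78% of all genes in either direction, and 0 of the 7 reached 2-fold, against 2.2% of all genes (1.22% higher and 0.977% lower). The median log2 ratio of the 7 was -0.01, with a range from -0.76 to 0.24, and the median of all genes was 0.02, with its central 95% from -0.69 to 0.72. With 7 genes, a single gene shifts a share by more than the gaps to these background values.

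TIMP3 showed the largest difference among the well-counted members. This inhibitor, which binds to the extracellular matrix, lies on chromosome 22 (GRCh38, 32800816 to 32863041, gene 7078) and has 1 annotated transcript. It had 1611 counts in control and 1391 in the deeper library labelled CIC knockdown, or 34.4 and 20.2 CPM (normalised counts scaled by library size). On this scale TIMP3 stood at 0.589 times control (0.548 to 0.633), a log2 ratio of -0.76, and 1.95% of all genes counted had a lower one. SYN3, the gene of synapsin III, spans the whole of TIMP3 on the other strand. SYN3 had 80 and 140 counts, giving a ratio of 1.19 (0.90 to 1.59), so it was far less counted than TIMP3 and did not share its direction.

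TIMP1 and TIMP2 did not follow TIMP3. TIMP1 (chromosome X, 47582408 to 47586789, gene 7076) had 1874 and 2594 counts, 40.0 and 37.7 CPM, giving a ratio of 0.944 (0.889 to 1.002). The interval only just included 1, and it fell below 1 with upper quartile scaling and in FPKM. TIMP2 (chromosome 17, 78852977 to 78925387, gene 7077), which both inhibits MMP14 and helps it to activate pro-MMP2, had 448 and 777 counts, 9.56 and 11.3 CPM. Its ratio was 1.18 (1.05 to 1.33). Genes within their loci were scarcely counted: SYN1, around TIMP1, had 0 and 6 counts and CEP295NL, within TIMP2, had 7 and 10. TIMP1 held 85.2% of the summed TIMP level in TPM in control and 87.6% in the other library. The sum of the 3 inhibitors went from 60.9 to 56.5 TPM, or 0.928 times control. In normalised counts it went from 83.9 to 69.3 CPM, or 0.826 times control. The share of TIMP3 in the TPM sum was 10.4% in control and 6.77% in the library labelled CIC knockdown, and the share of TIMP2 was 4.34% and 5.67%. TIMP3 stood at 0.303 times the ADAM17 level in control and 0.184 times in the other library.

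The 4 membrane-type members were carried by MMP16 and MMP15, which made up 52.6% and 45.4% of their summed 8.75 TPM in control. In the library labelled CIC knockdown the sum was 10.0 TPM, with shares of 53.6% and 45.6%. MMP17 and MMP25, membrane-type enzymes listed below with the other matrix metalloproteases, lie outside this sum. MMP17 had 2.26 and 2.54 TPM in the control and CIC knockdown-labelled libraries, and MMP25 0.447 and 0.407 TPM. MMP15 (chromosome 16, 58025754 to 58046901, gene 4324) had 748 and 1231 counts, 15.96 and 17.91 CPM, giving a ratio of 1.12 (1.02 to 1.23). With halved counts, which apply where both reads of a fragment were counted, this interval was 0.985 to 1.28 and included 1. MMP16 (chromosome 8, 88032009 to 88327483, gene 4325) had 2595 and 4176 counts, 55.4 and 60.8 CPM, giving a ratio of 1.10 (1.04 to 1.15). Summed over the 4 membrane-type members and both ADAM members, protease transcripts came to 45.4 TPM in control and 50.1 TPM in the other library. The 3 inhibitors together thus stood at 1.34 times these summed members in control and 1.13 times in the library labelled CIC knockdown. ADAM9 (40.3 and 47.7 TPM) and ADAM15 (25.7 and 29.6 TPM), each above either ADAM member, lie outside this sum. Both ratios thus describe the chosen members only and would be lower with those genes included. These are ratios of mRNA levels, not of protein or activity, and most of the change in the summed proteases came from ADAM10, at 15.7 and 19.3 TPM, whose length-corrected level and count disagreed. In normalised counts the 2 ADAM genes summed to 210.0 and 206.5 CPM.

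MMP14 and MMP24 were near the limit of detection. MMP14 (chromosome 14, 22836585 to 22847758, gene 4323), the best known collagen-degrading enzyme of invading cells, had 22 counts in control and 0 in the library labelled CIC knockdown. Against a floor of 3 counts in the latter it was at least 10.8 times lower if the 22 control counts are taken as exact. With the counting error of both libraries, the interval of the ratio reached up to 0.125, a smaller difference. Among the 1164 genes with 17 to 27 counts in control, MMP14 included, 14 (1.20%) were listed at 0 in the library labelled CIC knockdown. The median of the 1164 genes in that library was 28 counts. Among the 423 protein-coding genes of that range, MMP14 again included, 9 (2.13%) were listed at 0 there. The counts are estimates from divided coverage, so a listed 0 need not mean that no read fell on the gene. MMP24 (chromosome 20, 35226690 to 35276998, gene 10893) had 10 and 25 counts, 0.213 and 0.364 CPM. Its ratio was 1.71, with an interval of 0.791 to 3.98 that includes 1, and a difference was not detectable at this depth. Of the 1328 genes with 8 to 12 counts in control, 204 (15.4%) had a ratio at least as high, MMP24 itself included. The same held for 96 (23.4%) of the 410 protein-coding ones, again with MMP24 included. MMP24OS, a gene on the other strand that overlaps the 3′ end of MMP24 over 666 bases, had 295 and 540 counts, giving a ratio of 1.25 (1.08 to 1.44). The library kit marks strand, but whether counting used it is not stated, so reads of the overlap cannot be assigned with certainty. ETV4 and ETV5, by contrast, had ratios of 4.69 (3.71 to 6.0) and 4.97 (4.24 to 5.86).

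**Figure D2:**
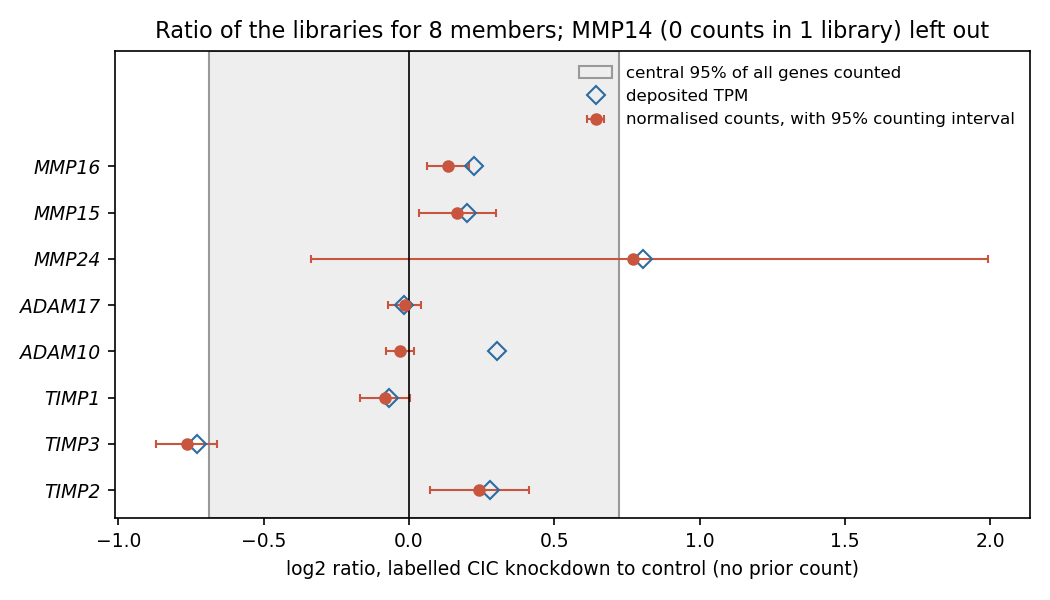
The log2 ratio of the library labelled CIC knockdown to control for 8 of the genes, from normalised counts with 95% counting intervals (filled circles) and from deposited TPM (open diamonds), with the central 95% of all genes counted in grey. TIMP3 lies below the grey band at -0.76. Both points of MMP24 lie above the band (0.81 in TPM), but on few counts and with a wide interval that spans 0. The band comes from genes with at least 100 counts and a prior count of 2, whereas the points use no prior count. For ADAM10 the TPM value of 0.30 lies away from the count value of -0.03.

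The ADAM sheddases were even in counts. ADAM17 (chromosome 2, 9488486 to 9555830, gene 6868), known as the TNF-alpha converting enzyme, had 4171 and 6053 counts, 89.0 and 88.1 CPM, giving a ratio of 0.99 (0.951 to 1.03). The gene IAH1, with 1305 and 1994 counts, overlaps the span of ADAM17 over 23918 bases. How reads in that overlap were assigned was not tested. ADAM10 (chromosome 15, 58588809 to 58749707, gene 102), the alpha-secretase of the amyloid precursor protein and a Notch sheddase, had 5675 and 8144 counts, 121.1 and 118.5 CPM, giving a ratio of 0.979 (0.946 to 1.01). In TPM, however, ADAM10 stood at 1.23 times the control level, while ADAM17 stood at 0.989 times. The disagreement for ADAM10 lies in its transcripts.

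ADAM10 has 3 annotated transcripts that differ in length. XM_024449818 is 4517 bases long and ends 6585 bases upstream of the others, and it had 1640 and 4168 counts, giving a ratio of 1.73 (1.64 to 1.84). NM_001110, of 11158 bases, had 3265 and 3582 counts, giving a ratio of 0.748 (0.713 to 0.785), and NM_001320570, of 11065 bases, had 770 and 394, giving a ratio of 0.349 (0.308 to 0.395). The short transcript thus held 50.1% of the gene's TPM in control and 72.1% in the library labelled CIC knockdown, and the mean length of an ADAM10 transcript was 7825 and 6365 bases. In all, 22.1% of the ADAM10 TPM changed transcript. Such moves were common: over 10429 genes with at least 2 counted transcripts and 100 counts, the median was 17.0%, and 57.6% of these genes moved less than ADAM10.

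The transcripts of ADAM17 changed places as well, while the gene total stayed even. XM_011510376, of 4369 bases, had 2209 and 3811 counts, giving a ratio of 1.18 (1.12 to 1.24). XM_017004786, of 4094 bases, which starts 12545 bases downstream of the reference transcript NM_003183, had 1451 and 1252, giving a ratio of 0.588 (0.545 to 0.635). NM_003183 itself had 399 and 575 counts, giving a ratio of 0.983 (0.864 to 1.12). XM_024453056, the longest at 6349 bases, had 76 and 415 counts, giving a ratio of 3.72 (2.91 to 4.82), and went from 1.22% to 4.76% of the gene's TPM. In sum 15.1% of the ADAM17 TPM moved, close to the median of all genes. For MMP16 the 19061-base model XM_024447154, which lacks the upstream start, had 339 and 165 counts, and the reference transcript NM_005941 had 2256 and 4011, or 91.7% and 97.6% of the gene's TPM. The ratio of NM_005941 alone was 1.21 (1.15 to 1.28), above that of the whole gene. TIMP1 came almost entirely from NM_003254, at 98.7% and 97.3% of its TPM, and MMP24 counts fell on 1 of its 4 transcripts, NM_006690. The counting intervals leave out the error of dividing coverage among transcripts. None of the assembled models in the deposited lists, 4993 splice variants and 792 transcripts outside annotated genes, overlapped the 9 loci.

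**Figure D3:**
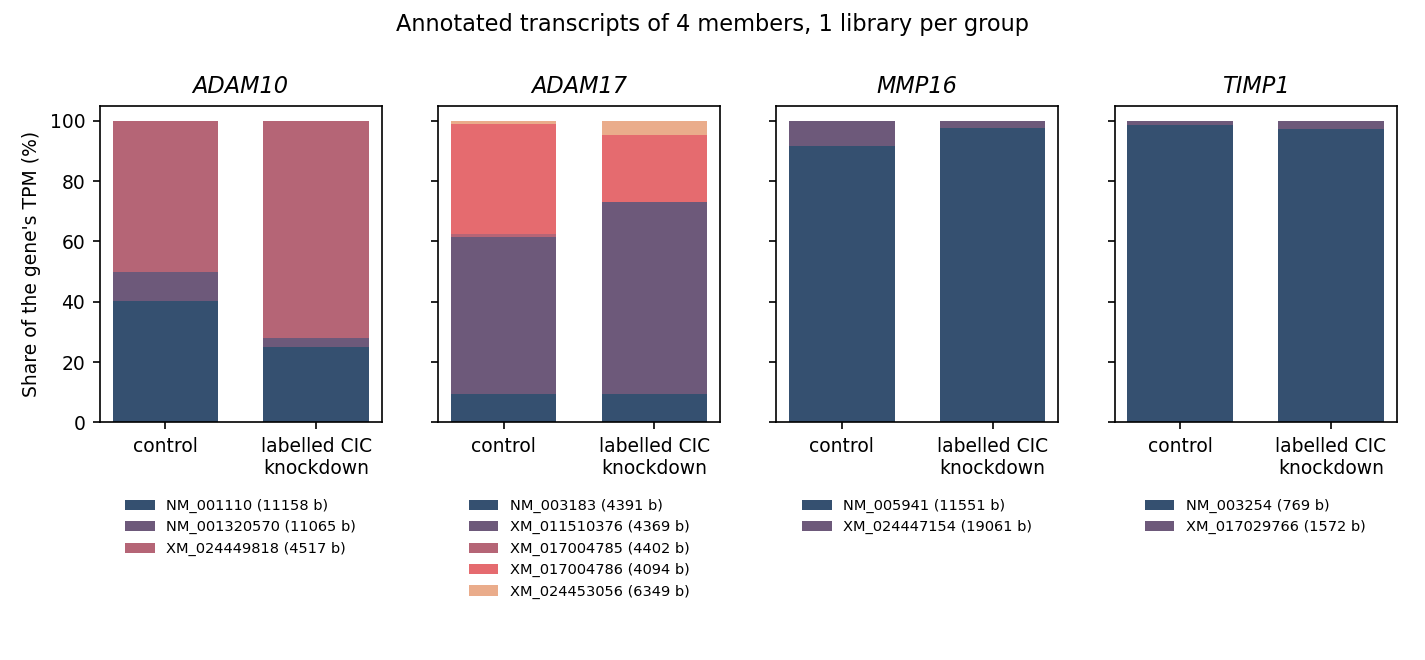
Share of each gene's TPM (%) held by its annotated transcripts, with lengths in bases (b), in the control library and the library labelled CIC knockdown. The short ADAM10 transcript goes from 50.1% to 72.1%, ADAM17 exchanges share among 5 transcripts, and MMP16 and TIMP1 are dominated by 1 transcript each.

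Of the 19 other matrix metalloproteases, 9 were at 0 in both libraries, among them MMP2, MMP3 and MMP7, and MMP2 is the precursor that MMP14 activates. Genes at 0 were common: of all 46732 genes, 23616 were counted in control and 24664 in the library labelled CIC knockdown. Among the 19 listed, 4 passed 100 counts, and 1 of these was higher by its interval, against 33.8% of all genes. This was MMP17 (another membrane-anchored enzyme, 197 and 368 counts, ratio 1.27, interval 1.07 to 1.52). MMP9, a gelatinase, had 75 and 120 counts with a ratio of 1.09 (0.811 to 1.48), MMP11 61 and 107 and a ratio of 1.20 (0.866 to 1.67), and MMP25 55 and 102 and a ratio of 1.26 (0.903 to 1.79). MMP25 was nominally higher in counts but lower in TPM (0.447 and 0.407). MMP19 had 82 and 92 counts, with a ratio of 0.765 (0.562 to 1.04). MMP2, MMP3 and MMP7 are named here after their values were seen.

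Among the other ADAM genes, ADAM9 and ADAM15 had a higher TPM than ADAM10 and ADAM17 in both libraries. Of 16, 7 passed 100 counts. By interval 4 were higher and 2 lower, against 33.8% and 27.3% of all genes. ADAM9, named after its values were seen, had 8224 and 12907 counts (40.3 and 47.7 TPM), giving a ratio of 1.07 (1.04 to 1.10). ADAM15 had 3368 and 5495 counts (25.7 and 29.6 TPM), giving a ratio of 1.11 (1.07 to 1.16). ADAM20 was lower at 436 and 415 counts, giving a ratio of 0.649 (0.566 to 0.744), as was ADAM32 at 413 and 504, giving a ratio of 0.832. ADAM11 (ratio 1.36) and ADAM22 (ratio 1.14), which lack protease activity, were higher, and ADAM8 overlapped a ratio of 1 at 1.11 (0.968 to 1.28). Of the 19 ADAMTS genes, secreted relatives that cut proteoglycans and procollagen, 5 passed. ADAMTS19 was lower at 3155 and 3557 counts, giving a ratio of 0.769 (0.733 to 0.807), and ADAMTS7 was higher at 65 and 141, giving a ratio of 1.48 (1.1 to 2.02). ADAMTS9, ADAMTS13 and ADAMTS17 overlapped a ratio of 1, at 0.927, 0.916 and 0.899, as did ADAMTS15, with 45 and 56 counts.

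Among 16 further surface and secreted metalloproteases, 8 passed. By interval 4 were higher and 2 lower, against 33.8% and 27.3% of all genes. MME, which encodes neprilysin, a peptide-degrading enzyme, had 277 and 140 counts, giving a ratio of 0.345 (0.279 to 0.424). ANPEP, aminopeptidase N, had 32 and 124 counts, giving a ratio of 2.64 (1.78 to 4.03), and the carboxypeptidase gene CPM 311 and 716, giving a ratio of 1.57 (1.37 to 1.8). MME and ANPEP thus differed by more than 2-fold in opposite directions, whereas ECE1 (1.11) and CPD (1.13) were higher and ENPEP (0.828) lower by smaller amounts.

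The other inhibitors held several genes that, like TIMP3, stood lower under the CIC knockdown label. Of 19 listed, 13 passed 100 counts. By interval 6 were lower and 3 higher, against 27.3% and 33.8% of all genes. By the 1.5-fold rule 2 were lower and 1 higher, against 3.46% and 4.31% of all genes. SERPINA3, an inhibitor of chymotrypsin-like proteases, had 8031 and 5029 counts (109 and 47.7 TPM), giving a ratio of 0.427 (0.412 to 0.442). A2M, the broad protease trap alpha-2-macroglobulin, had 2140 and 1538 counts, giving a ratio of 0.49 (0.459 to 0.524). SLPI (58 and 38 counts, ratio 0.447) and SPOCK2 (98 and 69 counts, ratio 0.48) were lower too, though under 100 counts. SPOCK1 went the other way at 76 and 180 counts, giving a ratio of 1.62 (1.23 to 2.14). RECK, a membrane-anchored inhibitor of metalloproteases, had 127 and 153 counts, giving a ratio of 0.822 (0.645 to 1.05), and TIMP4 18 and 37, giving a ratio of 1.40 (0.778 to 2.62), so neither differed beyond counting error. The median log2 ratio of the list was -0.14.

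Of 13 counted activators of pro-proteases, 7 were lower and 3 higher by interval, against 27.3% and 33.8% of all genes, with a median log2 ratio of -0.11. By the 1.5-fold rule 1 was lower and 1 higher, against 3.46% and 4.31% of all genes. The kallikrein genes KLK6 (395 and 334 counts) and KLK11 (2513 and 2457 counts) had ratios of 0.577 (0.497 to 0.669) and 0.667 (0.631 to 0.705), and KLK10, with 82 and 56 counts, 0.466 (0.326 to 0.662). PLAU and PLAUR, urokinase and its receptor, stood at 0.765 (0.613 to 0.956) and 0.715 (0.565 to 0.905). TMPRSS2, a transmembrane serine protease, was higher at 816 and 1938 counts, giving a ratio of 1.62 (1.49 to 1.76). FURIN, the convertase that activates membrane-type enzymes and ADAMs, is named after its values were seen, and its log2 ratio was -0.07 from 753 and 1048 counts.

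Partner proteins of ADAM10, ADAM17 and MMP14 were even as a list, with a median log2 ratio of 0.02. By interval 7 of 19 were higher and 7 lower, against 33.8% and 27.3% of all genes. TSPAN5 and TSPAN33, tetraspanins that carry ADAM10 to the surface, had 101 and 207 and 264 and 502 counts, with ratios of 1.40 (1.1 to 1.79) and 1.30 (1.12 to 1.51). RHBDF2, which encodes the iRhom2 carrier of ADAM17, had 219 and 444 counts, giving a ratio of 1.38 (1.17 to 1.63). Better counted relatives in the list, named after their values were seen, differed less and went both ways. RHBDF1 (2784 and 3718 counts) stood at 0.911 (0.867 to 0.957) and TSPAN15 (2163 and 2983 counts) at 0.941 (0.890 to 0.995). TSPAN14 (896 and 1530 counts) stood at 1.16 (1.07 to 1.27). CD63, a tetraspanin that binds TIMP1, was lower at 22271 and 25390 counts, giving a ratio of 0.778 (0.764 to 0.792). The caveolin gene CAV1 was lower at 0.531 (0.448 to 0.629), and CLDN1, with 43 and 96 counts, higher at 1.52 (1.05 to 2.24).

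Substrates shed by these enzymes were as mixed, with a median log2 ratio of 0.01. By interval 9 of 31 were higher and 8 lower, against 33.8% and 27.3% of all genes. EGF, a ligand precursor, had 110 and 323 counts, giving a ratio of 2.0 (1.61 to 2.51). The adhesion genes ALCAM and CD44 stood at 0.727 (0.718 to 0.737) and 0.722 (0.652 to 0.799), IL6R at 0.652 (0.565 to 0.754) and L1CAM at 1.35 (1.12 to 1.62). MUC1 was lower in counts, at 0.647, but not in TPM (3.38 and 3.63). Gamma-secretase cuts after the sheddases, but this does not hold for every gene listed with it. The list of gamma-secretase and other intramembrane proteases includes BACE1 and BACE2, which are sheddases themselves, and MBTPS1, which is not intramembrane. By interval 3 of 13 were higher and 3 lower, against 33.8% and 27.3% of all genes. The 1.5-fold rule was met by 0, against 7.78% of all genes. SPPL2B stood at 0.844, PSEN2 at 1.09 and SPPL2A at 1.08, while NCSTN (1.09) and MBTPS2 (0.90) overlapped a ratio of 1, and RHBDL2, with 34 and 88 counts, stood at 1.77 (1.18 to 2.71).

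The list of cysteine, aspartic and serine proteases of invasion had 10 counted genes, among them HPSE, heparanase, which is not a protease. By interval 4 of the 10 were higher and 4 lower, against 33.8% and 27.3% of all genes. CTSV and HTRA1 were higher by at least 1.5-fold, the first with 1442 and 3467 counts and a ratio of 1.64 (1.54 to 1.74), the second with 523 and 1209 counts and a ratio of 1.58 (1.42 to 1.75). CTSL (0.805) and CTSK (0.784) were lower. Cathepsin genes under 100 counts stood farther out, CTSS at 0.374 (82 and 45 counts) and CTSZ at 4.09 (9 and 54 counts, interval 2.0 to 9.43). Over the 10 related lists, 123 genes passed 100 counts; 5.69% were at least 1.5-fold higher and 6.50% at least 1.5-fold lower, against 4.31% and 3.46% of all genes. Of the 9 counted genes that host, neighbour or overlap members, 4 were higher by interval, 1 lower and 4 overlapped a ratio of 1. Over all genes 33.8% were higher and 27.3% lower. The median log2 ratio of the 9 was 0.13. EDEM2, EIF6 and IAH1 had ratios of 1.0, 1.04 and 1.04, all with intervals that include 1. CFAP20 (1.10), CPSF3 (1.14) and MRPL52 (1.16) were higher by interval, as was MMP24OS above, and MINDY2 was lower at 0.751 (0.707 to 0.798). SYN2, the host of TIMP4, had 8 and 13 counts, and the readthrough gene MMP24-AS1-EDEM2 14 and 20, too few to tell apart.

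**Figure D4:**
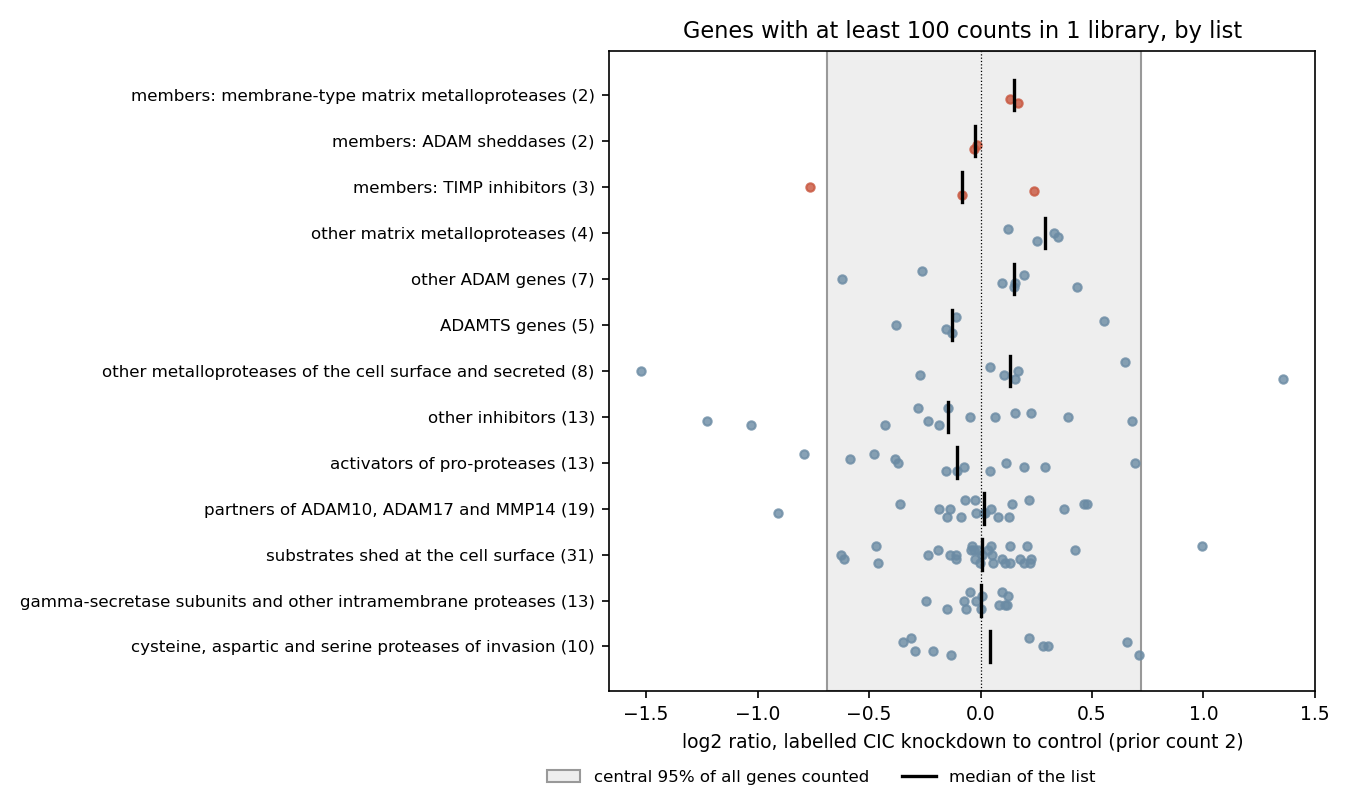
The log2 ratio of the library labelled CIC knockdown to control for each gene with at least 100 counts in 1 library, by list, with the number of such genes in brackets, the list's median as a black bar and the central 95% of all genes in grey. TIMP3 is the 1 member outside the grey band. MME, SERPINA3, A2M, CAV1 and KLK6 also lie below it, and ANPEP and EGF lie above it.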

How the data were processed

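Per the submitters' processing notes, Trimmomatic, HISAT2 and StringTie were used with builds hg38 and GRCh38, without versions or roles. The deposited tables give, per the file headers, an estimated count of reads, an FPKM and a TPM for each gene and transcript in each library. The deposited estimated counts were whole numbers, computed by the authors' software from coverage, and lay within 1 count, or 1%, of FPKM times transcript length times a constant for over 99.9% of transcripts, so they follow how coverage was divided among transcripts. Columns were matched to samples by title; 0 columns were left out.

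Effective library sizes came from edgeR 4.0.16 (TMM) in R 4.3.3. Log2 ratios used a prior count of 2, and printed ratios none. Ratios carry exact Clopper-Pearson 95% intervals and levels exact Poisson ones, on the assumption of independent counts. These cover counting error only, and PCR copies make reads dependent. A 0 was set against a floor of 3 counts. A gene was counted as higher or lower when its interval excluded 1, with at least 100 counts in 1 library. The calculation was checked on simulated data. With 1 library per group, no p-value is given. TPM intervals scale the count interval.

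The 9 members and all lists were chosen with earlier results of these data known. Named genes are the members, CIC, ETV4, ETV5, TIMP4, RECK, the host, neighbour or antisense genes, and up to 6 genes per list with at least 50 counts and the largest absolute log2 ratio. BACE1, BACE2, MBTPS1 and HPSE are named only to describe their lists. Alternatives were DESeq2 1.42.0 size factors, other scalings, prior counts, units, count minimums and the gene table with assembled transcripts. One gene of the related lists is not reported here by name, although the counts over its list include it.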

Additional observations from a re-analysis of the deposited data

How the results depend on the processing

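No paired analysis was possible because each group has 1 library. TIMP3 stayed lower under all 11 alternatives that recompute the ratio, with log2 ratios from -0.78 to -0.61. MMP16 and TIMP2 stayed higher by interval in all 11, and MMP15 in all but halved counts. With halved counts the TIMP2 interval, 1.001 to 1.40, only just excluded 1. The log2 ratio of ADAM10 ran from -0.05 to 0.30: its interval lay below 1 with upper quartile factors and above 1 in TPM and FPKM, where transcript length enters. The median log2 ratio of the members was 0.20 in TPM with a pseudocount of 0.1, 0.16 with 1, and 0.18 in FPKM. Members lower by interval numbered 3 with upper quartile factors, 2 in FPKM, 2 with a minimum of 20 counts and 2 with none. MMP14 then joins TIMP3, so 2 members were at least 1.5-fold lower with either smaller minimum. Related genes at least 1.5-fold higher were 14 with a minimum of 20 counts and 19 with none, and those lower 14 and 18, against 7 and 8, because more genes enter. The share of MMP16 that changed transcript was 9.11% from counts against 5.91% from TPM, and that of TIMP1 2.73% against 1.38%. The log2 ratio of MMP14, from -5.79 to -0.17, depends on the prior count or pseudocount. Depth limits MMP14 and MMP24 most.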
